A study of Danio rerio with 14 samples.

Results

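The transcriptomes of whole zebrafish embryos labelled "sib" were compared between 24 and 48 h post fertilization (hpf), over all genes of the count table. The comparison took 7 of the 14 libraries, 4 at 24 hpf and 3 at 48 hpf, chosen by their stage and genotype labels. The other 7 libraries came from embryos with a CRISPR/Cas9-mediated knockout of mttp, which encodes the microsomal transfer protein that loads lipid onto apolipoprotein B. The label "sib" is read here as siblings of these mutants; it does not give their mttp alleles. Every library carried the treatment label "none". Stage and batch label were the same in every library, so the effects of stage and of batch cannot be told apart. Nothing in the labels says that replicates were separate clutches, so the p-values measure only the spread between the samples of this series. That spread was estimated over all 14 libraries, mutants included.

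Between these stages a zebrafish embryo completes the last steps of segmentation, hatching approaches, and the tissues laid down earlier begin to work. Fast muscle fills with contractile proteins, neurons form synapses, lens fibres fill with crystallins, and cartilage and bone start to form. The embryo feeds throughout on yolk, whose lipid the yolk syncytial layer exports as lipoproteins. In whole-embryo RNA, a change in the number of cells of a type and a change in the RNA per cell cannot be told apart.

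The sibling libraries held 29701401 to 46534187 counted reads. Sibling replicate 3 at 48 hpf stood apart from the others of its stage. It had the highest total, 23327 detected genes against 26890 and 26948 in replicates 1 and 2, and a mitochondrially encoded share of 0.739% of counts against 1.89% and 2.00%. At 24 hpf, replicate 2 had the lowest mitochondrial share, 0.909%, and the other libraries lay between 1.38% and 2.08%. These 2 are called the libraries of low mitochondrial share. Beyond leaving them out, the part of these differences in the results was not tested. Pearson correlations of log2 CPM, counts scaled to library size, were 0.963 to 0.976 within 24 hpf, 0.935 to 0.970 within 48 hpf and 0.857 to 0.886 between stages. All 13 markers of major embryonic cell types, from muscle actc1b to yolk and liver apoa1b, had counts in all 7 libraries.

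Of 24424 genes tested, 6388 (26.2%) were higher and 6419 (26.3%) lower at 48 hpf at an adjusted p under 0.05, by edgeR's quasi-likelihood test with Benjamini-Hochberg adjustment. Genes past that threshold are named higher or lower, or said to have risen or fallen. The shares of 26.2% and 26.3% are the background for every count of list members below. Genes with almost no reads in the sibling libraries of 1 stage could pass the filter on low counts only through other libraries. For them a change in only 1 direction could be called. The higher genes had the greater changes, with a median log2 fold change of 1.5 against -0.80 for the lower genes. At least a 16-fold change was estimated for 472 of the higher and 168 of the lower genes. The median of all genes tested was -0.040. Every 48 hpf library lay above every 24 hpf library for 25.2% of genes, and below for another 25.2%, 50.4% together. Without 48 hpf replicate 3, 11675 of the 12807 calls were made in the same direction and 0 in the opposite one. With the spread estimated from the 7 sibling libraries only, 5752 genes were higher and 5236 lower. Scaled by library size only, 52.4% of the called genes were higher, against 49.9% in the main fit. Below, a value after ± is a standard error (SE) for a log2 fold change and a standard deviation (SD) for CPM. The SD is over 4 libraries at 24 hpf and 3 at 48 hpf. The SE was computed as the absolute log2 fold change over the square root of the edgeR F statistic. It is approximate, above all for genes with few counts at 1 stage. CPM takes no account of gene length, so levels are compared between stages and not between genes.

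**Figure D1:**
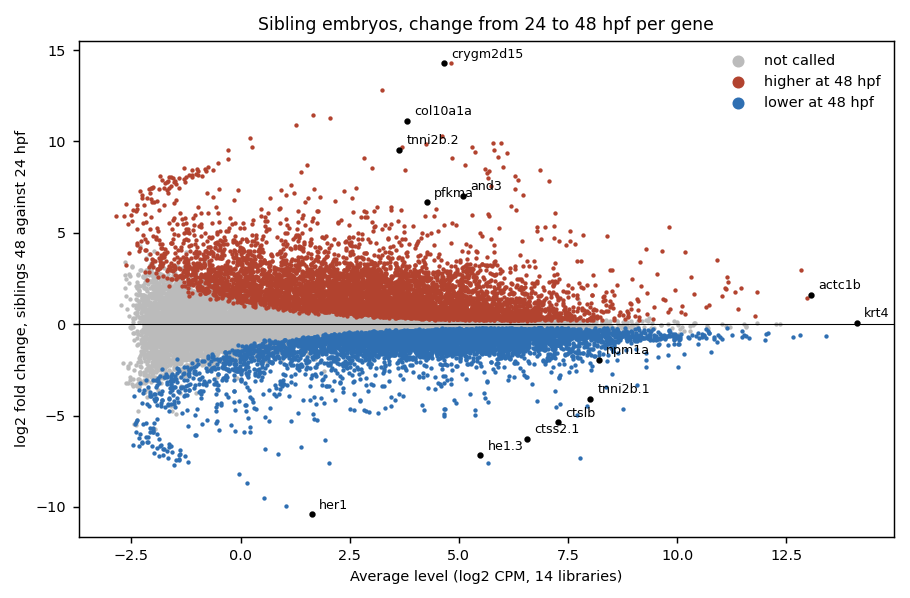
Log2 fold change of each gene tested in siblings, 48 against 24 hpf, against its average level in log2 CPM over all 14 libraries. Red and blue points are the 6388 higher and 6419 lower genes and grey points were not called; fitted changes of genes with no counts at 1 stage, such as her1 and crygm2d15, depend on the fit's prior count.

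Crystallins had the highest median change of the 47 gene lists. Of 55 listed crystallins, the proteins that make the lens transparent, 38 passed the filter on low counts and were tested. Of these 38, 37 were higher and 1 lower. Their median log2 fold change was 8.01, or 7.91 with the genes absent at 24 hpf set to their lower bound. Members with almost no reads at 24 hpf could pass that filter only through 48 hpf libraries, so for them only a rise could be called. The summed level of the tested members went from 156 ± 61.2 to 6188 ± 552 CPM, 39.6-fold. Of the 12 named genes with the greatest rise, 10 were gamma crystallins. The gamma crystallin crygm2d1 had 0, 0.118, 0.124 and 0.426 CPM at 24 hpf and 149, 170.2 and 176 CPM at 48 hpf (log2 fold change 9.91 ± 0.32, edgeR adjusted p = 1.12e-12). The 24 hpf libraries were all near 0 and the 48 hpf libraries close together, as in the plot of single genes by library, and without 24 hpf replicate 4 the log2 fold change was 10.9. No read of crygm2d15 or crygm2d9 was counted at 24 hpf, and their 48 hpf levels, 72.7 and 72.3 CPM, were at least 3160-fold and 3140-fold higher than 3 counts over the 24 hpf libraries. The same bound gave at least 444-fold for crygm2d11 and 305-fold for crygmxl1. Reads may be shared among the near-identical crygm2d copies, so the values of single copies are uncertain. The chaperone alpha crystallin cryaa rose from 0.447 ± 0.232 to 34.4 ± 4.22 CPM. The single lower member was crybb3, a beta crystallin of 1.74 to 0.342 CPM, named after its values were seen; its call was lost without both libraries of low mitochondrial share.

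Other parts of the lens fibre moved with the crystallins. Of 16 tested genes of lens structure and regulation, 12 were higher and 3 lower (median log2 fold change 3.16). The lens intermediate filament gene bfsp2 rose from 0.703 ± 0.425 to 57 ± 7.04 CPM (log2 fold change 6.33 ± 0.29, edgeR adjusted p = 2.00e-11) and the lens aquaporin mipb from 1.52 ± 1.28 to 95.5 ± 1.28 CPM, with a log2 fold change of 5.98, or 6.7 without 24 hpf replicate 3. The fibre membrane protein gene lim2.5 had no read at 24 hpf and was at least 399-fold higher at 48 hpf, while its relatives lim2.4 (4.41 ± 0.29) and lim2.1 (2.79 ± 0.17) started from a measurable level. The 3 lower members were transcription factors, mafbb, foxe3 and pitx3, with log2 fold changes of -1.41, -0.68 and -0.42. They were named after their values were seen, and 1 was called lower when 24 hpf replicate 1 or replicate 4 was left out. The number lower was also 1 with RLE size factors, another normalization, and when scaled by library size only. It was 1 as well with no filter on low counts, a CPM filter, the sibling libraries only or a 2-fold threshold. With single sibling libraries left out, the call was lost 5 times for foxe3 and 4 times for pitx3.

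Genes of the segmentation clock and the tailbud were among those with the greatest falls. Somites are cut off by oscillating hairy genes in the presomitic mesoderm, and the tailbud supplies that mesoderm. Of 30 tested members, 23 were lower and 1 higher (median log2 fold change -1.27). In 5 members no read was counted in the 48 hpf sibling libraries. They could pass the filter on low counts only through other libraries, so for them only a fall could be called. With these set to their bound the median was also -1.27. The clock repressor her1 had 7.69, 4.14, 3.35 and 4.44 CPM at 24 hpf and 0, 0 and 0 CPM at 48 hpf. Its 48 hpf libraries held no read, at least 175-fold lower than at 24 hpf. The mesoderm factor msgn1 fell from 10.21 ± 2.36 to 0.396 ± 0.174 CPM (log2 fold change -4.65 ± 0.35, edgeR adjusted p = 9.32e-09) and the caudal homeobox gene cdx4 from 12.4 ± 3.35 to 0.437 ± 0.0624 CPM. The segment boundary genes ripply2, mespaa, mespbb and mespba also had no read at 48 hpf, at least 22-fold, 13.3-fold, 11.1-fold and 7.8-fold lower; they lie outside the naming rule and were picked after their values were seen. The call of mespba was lost without any 1 of the 48 hpf libraries, and limma-voom did not call mespba or mespbb. The notochord and tailbud T-box gene tbxta kept part of its level, 28.5, 30.8, 30.2 and 27.6 CPM at 24 hpf and 11.5, 15.18 and 10.8 CPM at 48 hpf. The pluripotency-associated RNA-binding protein gene lin28a fell (-2.91 ± 0.14), and so did sall4 (-1.6 ± 0.11), which encodes a zinc finger factor. Other early patterning genes were among the greatest falls: znfl1h (-6.72 ± 0.59), the ventral homeobox repressor vox (-4.86 ± 0.60) and prtga, a protogenin gene (-4.68 ± 0.36). Without 48 hpf replicate 3 the estimate was -6.04 for znfl1h and -4.18 for vox, and without replicate 1 it was -7.68 for vox.

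Hox genes set position along the body axis. In groups 1 to 4, 6 of 14 were lower and 1 higher; in groups 5 to 8, 4 of 12 were lower and 3 higher; in groups 9 to 13, 6 of 23 were lower and 1 higher. The medians were -0.40, 0.015 and -0.33. The shares lower in groups 5 to 8 and 9 to 13, 33.3% and 26.1%, were near the 26.3% of all genes. Anterior hoxb1b fell from 58.4 ± 7.81 to 26.4 ± 5.74 CPM (log2 fold change -1.15 ± 0.14, edgeR adjusted p = 2.11e-06) and hoxc4a rose from 10.6 ± 1.56 to 25.8 ± 1.78 CPM (log2 fold change 1.29 ± 0.13, edgeR adjusted p = 2.00e-07). The lowest estimate of any Hox gene was that of hoxb1a (-2.29 ± 0.47, edgeR adjusted p = 5.89e-04), named after its values were seen. In the middle groups, hoxb5a rose (0.81 ± 0.14) and hoxb7a, hoxc6b and hoxb8b fell (-0.92 ± 0.16, -0.73 ± 0.16 and -0.60 ± 0.17). Among posterior genes hoxc13a, hoxc12b and hoxd10a fell (-0.83 ± 0.18, -0.96 ± 0.30 and -0.50 ± 0.14) and hoxa9b rose (0.54 ± 0.16). The higher members of groups 5 to 8 were 1 without 48 hpf replicate 1 and 5 without replicate 3, and hoxa9b and hoxc12b lost their calls without replicate 3. The call of hoxb8b was lost without both libraries of low mitochondrial share.

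All 46 tested genes of DNA replication and cell division were lower (median log2 fold change -1.23), against 26.3% of all genes. Their summed level fell from 10929 ± 774 to 4659 ± 761 CPM, 2.35-fold. The replication clamp gene pcna had 839, 1152, 957 and 871 CPM at 24 hpf and 267, 309 and 398 CPM at 48 hpf (log2 fold change -1.56 ± 0.14, edgeR adjusted p = 6.05e-08). The groups were far apart. The replicative helicase genes mcm3, mcm4 and mcm5 had log2 fold changes of -1.69 ± 0.11, -1.55 ± 0.10 and -1.68 ± 0.11, and the cohesin acetyltransferase gene esco2 -1.7 ± 0.10. The members at the ends of the range, picked after their values were seen, were cdc6 of origin licensing (-2.36 ± 0.17) and cenpf of the kinetochore (-0.48 ± 0.12).

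All 39 tested genes of ribosome biogenesis were lower as well (median log2 fold change -1.53). The nucleolar chaperone gene npm1a had 466, 506, 442 and 429 CPM at 24 hpf and 116, 110.0 and 133 CPM at 48 hpf (log2 fold change -1.94 ± 0.10, edgeR adjusted p = 9.45e-11). Its 24 and 48 hpf libraries were far apart. Falls were also seen for the large-subunit processing factor bop1 (-2.1 ± 0.12), nhp2 of the pseudouridylating ribonucleoprotein (-1.71 ± 0.091) and nucleolar gnl3 (-1.51 ± 0.088). Of the ribosomal protein genes, 74 of 77 were lower, with a median of -0.70. Their summed level fell from 79548 ± 10384 to 49202 ± 5852 CPM. The 3 ribosomal protein genes not called, rplp1, rps26 and rplp2, had estimates of -0.55, -0.54 and 0.026 and were named after their values were seen. Of 16 tested germ line and maternal genes, 6 were lower, among them the germ cell helicase ddx4 (-1.46 ± 0.28) and nanos3 (-1.53 ± 0.35), a translational repressor of germ cells. The number lower was 2 without 24 hpf replicate 4 and 3 without 48 hpf replicate 1 or 2. Apart from ybx1, a cold shock domain protein gene, the mean of every tested germ line gene was under 5 CPM at both stages. The calls of piwil1 and of ybx1 were among those lost (0.0324 and 0.0189 as edgeR adjusted p with all libraries, at most 0.142 and 0.126 over the alternatives).

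**Figure D2:**
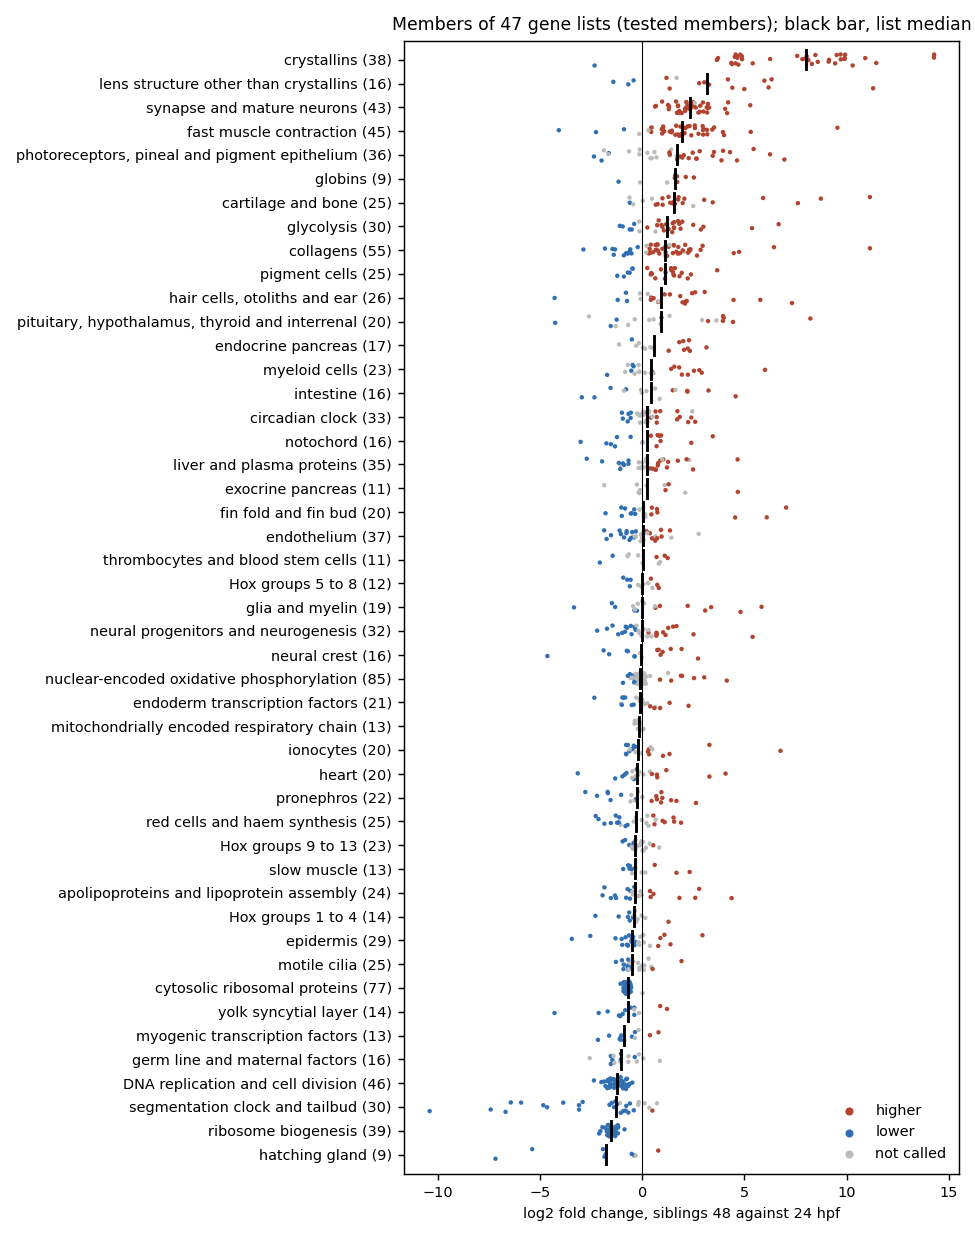
Log2 fold changes of the tested members of 47 gene lists in siblings, 48 against 24 hpf, with the number of tested members after each name. Points are genes, higher in red, lower in blue and not called in grey, and black bars are list medians; all tested division and ribosome biogenesis genes lie left of 0 and 37 of 38 crystallins right of it.

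Fast muscle genes took a greater part of the transcriptome at 48 hpf. Of 45 tested genes of fast muscle contraction, 38 were higher and 3 lower (median log2 fold change 1.93). Their summed level rose from 30982.5 ± 4183 to 108405 ± 12227 CPM. The fast myosin heavy chain myhz2 had 739, 641, 974 and 908 CPM at 24 hpf and 4430.1, 3986 and 6241 CPM at 48 hpf (log2 fold change 2.58 ± 0.20, edgeR adjusted p = 1.19e-08). All 3 libraries at 48 hpf were well above those at 24 hpf. The fast myosin light chain gene mylpfb rose from 94.6 ± 18.3 to 743 ± 25.4 CPM, creatine kinase ckmb from 1331 ± 130.2 to 5157 ± 393 CPM and the alpha actin actc1b from 4836 ± 648 to 14884 ± 889 CPM. Among genes of troponin I, the inhibitory troponin subunit, tnni2b.1 and tnni2b.2 moved in opposite directions. The copy tnni2b.1 had 341, 465, 488 and 470.3 CPM at 24 hpf and 19.3, 26.6 and 32.5 CPM at 48 hpf (log2 fold change -4.07 ± 0.19, edgeR adjusted p = 2.02e-11). Its neighbour in name, tnni2b.2, had 0.0318, 0.0591, 0 and 0.0912 CPM at 24 hpf and 33.6, 30 and 47.8 CPM at 48 hpf (log2 fold change 9.55 ± 0.36, edgeR adjusted p = 3.79e-12). Each copy was separated between the stages without overlap, the first falling and the second rising from almost no reads. For tnni2b.2, the rule for switched genes given below, which it met, requires that separation. The cardiac-type troponin T gene tnnt2c was among the greatest falls (-4.66 ± 0.16).

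Genes of slow muscle and of myogenic regulation were more often lower than higher. Of 13 slow muscle genes, 3 were higher and 6 lower (median -0.35), 23.1% and 46.2% against 26.2% and 26.3% of all genes. Slow myosin heavy chain smyhc1 fell from 1836 ± 251 to 1219 ± 241 CPM (log2 fold change -0.59 ± 0.13, edgeR adjusted p = 7.96e-04) and the light chains myl10 (-0.93 ± 0.12) and myl13 (-0.62 ± 0.10) fell too, while mybpc1, a myosin-binding protein C gene, rose (2.32 ± 0.27). Of 13 myogenic transcription factors, 9 were lower and 2 higher (median -0.88). Myogenin, myog, which drives the fusion and differentiation of myoblasts, had 18, 19.6, 10.3 and 14.7 CPM at 24 hpf and 3.35, 3.8 and 3.35 CPM at 48 hpf (log2 fold change -2.16 ± 0.20, edgeR adjusted p = 9.92e-08). All 48 hpf libraries were below all those at 24 hpf. The factors mef2d, mef2ca and pax3a also fell (-1.07 ± 0.12, -1.02 ± 0.075 and -1.06 ± 0.12). The 2 higher members were six1a (0.80 ± 0.15) and six1b (0.38 ± 0.14), homeobox genes named after their values were seen; 1 was called when 24 hpf replicate 3, 48 hpf replicate 1 or 48 hpf replicate 2 was left out.

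Heart genes went both ways, with 6 of 20 higher and 7 lower, shares of 30.0% and 35.0% against 26.2% and 26.3% of all genes. Atrial natriuretic peptide nppa, made by the working chambers, rose from 0.996 ± 0.865 to 16.8 ± 2.5 CPM (log2 fold change 4.08 ± 0.47, edgeR adjusted p = 1.43e-06); without 24 hpf replicate 3 the log2 fold change was 4.87. The T-box genes tbx20 and tbx2b rose (1.18 ± 0.13 and 0.74 ± 0.10) and the early heart factor nkx2.7 fell (-3.15 ± 0.35). Without 48 hpf replicate 2 the number lower was 4.

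Most skeletal genes were higher. Of 25 tested cartilage and bone genes, 19 were higher and 1 lower (median log2 fold change 1.55). For members with almost no reads at 24 hpf, such as col10a1a and gdf5, only a rise could be called. The collagen of hypertrophic cartilage and early bone, col10a1a, had 0, 0, 0 and 0.0608 CPM at 24 hpf and 47.1, 34.8 and 46.3 CPM at 48 hpf. With 2 reads in all at 24 hpf, both in replicate 4, the ratio was 2820-fold, with a counting interval of 780 to 23300; without that library it was at least 1390-fold higher. The matrilin gene matn3a rose from 0.205 ± 0.129 to 89.8 ± 7.53 CPM (log2 fold change 8.74 ± 0.36, edgeR adjusted p = 9.18e-12), the joint growth factor gdf5 from 0.0314 ± 0.0363 to 6.75 ± 1.16 CPM, and the chondrogenic factor sox9a more modestly, from 66.4 ± 1.87 to 132 ± 6.94 CPM. The 1 lower gene was the osteoblast factor sp7 (-0.60 ± 0.21), named after its values were seen and not called without 24 hpf replicate 1 or 2 or 48 hpf replicate 3. Among 55 collagen genes, 38 were higher and 12 lower (median 1.13, or 0.92 without 48 hpf replicate 3). Epidermal hemidesmosome collagen col17a1a rose from 2.45 ± 0.94 to 214 ± 44.5 CPM and col5a3a fell from 129 ± 10.4 to 17.6 ± 1.95 CPM, as did col14a1a (-1.82 ± 0.091) and the vacuolated notochord collagen col8a1a (-1.33 ± 0.12). The main cartilage collagen col2a1a had 1825, 3228, 2381 and 1936 CPM at 24 hpf and 3355, 3321 and 5881 CPM at 48 hpf (log2 fold change 0.84 ± 0.19, edgeR adjusted p = 0.00134). Its lowest 48 hpf library was above the highest at 24 hpf.

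Notochord genes were split, with 8 of 16 higher and 6 lower. Those that fell included ntd5 (-1.53 ± 0.19) and tbxta; those that rose included the matrix genes epyc (2.4 ± 0.15) and matn4 (0.90 ± 0.12). Fin genes were also split, 7 of 20 higher and 8 lower, with the actinodin genes, which build the fin fold rays, rising most. and1 had 11.4, 8.87, 22.5 and 18.7 CPM at 24 hpf and 398, 389.9 and 291 CPM at 48 hpf (log2 fold change 4.55 ± 0.29, edgeR adjusted p = 8.95e-10), and2 rose from 5.03 ± 2.66 to 343 ± 43 CPM and and3 from 0.635 ± 0.398 to 83.2 ± 20.6 CPM. The lowest and1 library at 48 hpf was far above the highest at 24 hpf. The fin mesenchyme and fold factor msx1b fell (-0.99 ± 0.12).

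Nearly all neuronal genes were higher while progenitor genes were split. Of 43 tested genes of synapses and mature neurons, 42 were higher (median log2 fold change 2.34). The synaptic vesicle glycoprotein gene sv2a had 19.5, 18.8, 18.9 and 19 CPM at 24 hpf and 145, 122 and 138 CPM at 48 hpf (log2 fold change 2.82 ± 0.10, edgeR adjusted p = 2.37e-12). There was little spread within either stage. The growth cone tubulin binder stmn2a rose from 21 ± 1.73 to 99.8 ± 0.533 CPM, the neuronal RNA-binding protein gene elavl4 from 46.5 ± 5.71 to 313 ± 37.7 CPM and the GABA-synthesizing enzyme gene gad1b from 5.89 ± 1.01 to 42.3 ± 3.38 CPM. The member not called was cplx4a, a complexin gene named after its values were seen (0.149 to 0.895 CPM, edgeR adjusted p = 0.0668). Among 32 progenitor and neurogenesis genes, 11 were higher and 12 lower (median -0.011). The early neural Sox gene sox19a fell from 271 ± 24.2 to 82.4 ± 3.53 CPM (log2 fold change -1.72 ± 0.10, edgeR adjusted p = 1.98e-10) and the progenitor factor sox2 less (-0.37 ± 0.077). The higher members included the transcription factor genes neurod4 (1.68 ± 0.10) and insm1a (1.51 ± 0.10), the neuronal tubulin tubb5 (1.14 ± 0.079) and the early neuronal gene elavl3, from 315 ± 70.7 to 761 ± 197 CPM.

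Glial genes went both ways. Of 19 tested, 7 were higher, 6 lower and 6 not called. The shares higher and lower were 36.8% and 31.6%, against 26.2% and 26.3% of all genes. The glutamate transporter gene slc1a2b had 31.4, 28.9, 31.4 and 33.2 CPM at 24 hpf and 364, 320.0 and 285 CPM at 48 hpf (log2 fold change 3.37 ± 0.11, edgeR adjusted p = 9.53e-13), and slc1a3b rose from 3.62 ± 1.56 to 101 ± 16.3 CPM and the radial glial lipid carrier fabp7a from 26.7 ± 9.6 to 226 ± 44.8 CPM. For each of these transporters and carriers, every 48 hpf library was above every 24 hpf library. The hindbrain and Schwann cell factor egr2b fell (-3.33 ± 0.30). For the radial glial filament gene gfap the estimate was 0.095 ± 0.14 (edgeR adjusted p = 0.597), with the opposite sign, -0.12, without 48 hpf replicate 3. Myelin mbpa had 0 to 2 reads per sibling library and was not tested.

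Of 36 tested photoreceptor, pineal and pigment epithelium genes, out of 42 listed, 20 were higher and 3 lower (median log2 fold change 1.7). For members with almost no reads at 24 hpf, such as rho, only a rise could be called. The photoreceptor homeobox gene crx had 0.572, 0.473, 0.248 and 0.669 CPM at 24 hpf and 36, 47.3 and 29.9 CPM at 48 hpf (log2 fold change 6.25 ± 0.26, edgeR adjusted p = 1.08e-11). Related otx5 rose from 1.94 ± 0.98 to 84.5 ± 17 CPM, the rod factor nr2e3 from 0.813 ± 0.25 to 16.1 ± 4.12 CPM and the phosphodiesterase subunit pde6gb from 1.09 ± 0.158 to 27.3 ± 6.32 CPM. Rod opsin rho had 0.0636, 0, 0 and 0 CPM at 24 hpf and 2.62, 4.49 and 0 CPM at 48 hpf. Replicate 3 at 48 hpf held no rho read, like 3 of the libraries at 24 hpf, so the stages overlapped. The ratio of rho, from 2 reads in all at 24 hpf, was 136-fold, with a counting interval of 37.3 to 1130, and limma-voom did not call it (adjusted p up to 0.224 over the alternatives). It was 230.0-fold (62.9 to 1910) without 48 hpf replicate 3, 73.4-fold (19.7 to 616) without replicate 2, and at least 78.1-fold without 24 hpf replicate 1, which held both reads of its stage. The ultraviolet cone opsin opn1sw1 had at most 2 reads in any library and was not tested. In the ear, 17 of 26 genes were higher and 4 lower (median 0.94). The summed level of the list went the other way, from 503 ± 34.1 to 404 ± 53.1 CPM. The otoferlin gene otofb of hair cell synapses rose (2.1 ± 0.19), as did tectorin tecta (2.15 ± 0.27), the otolith matrix gene otomp (0.42 ± 0.10) and s100t (1.98 ± 0.20), and the otolith protein gene oc90 fell from 82.4 ± 7.57 to 4.19 ± 1.26 CPM (log2 fold change -4.28 ± 0.17, edgeR adjusted p = 5.78e-12).

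**Figure D3:**
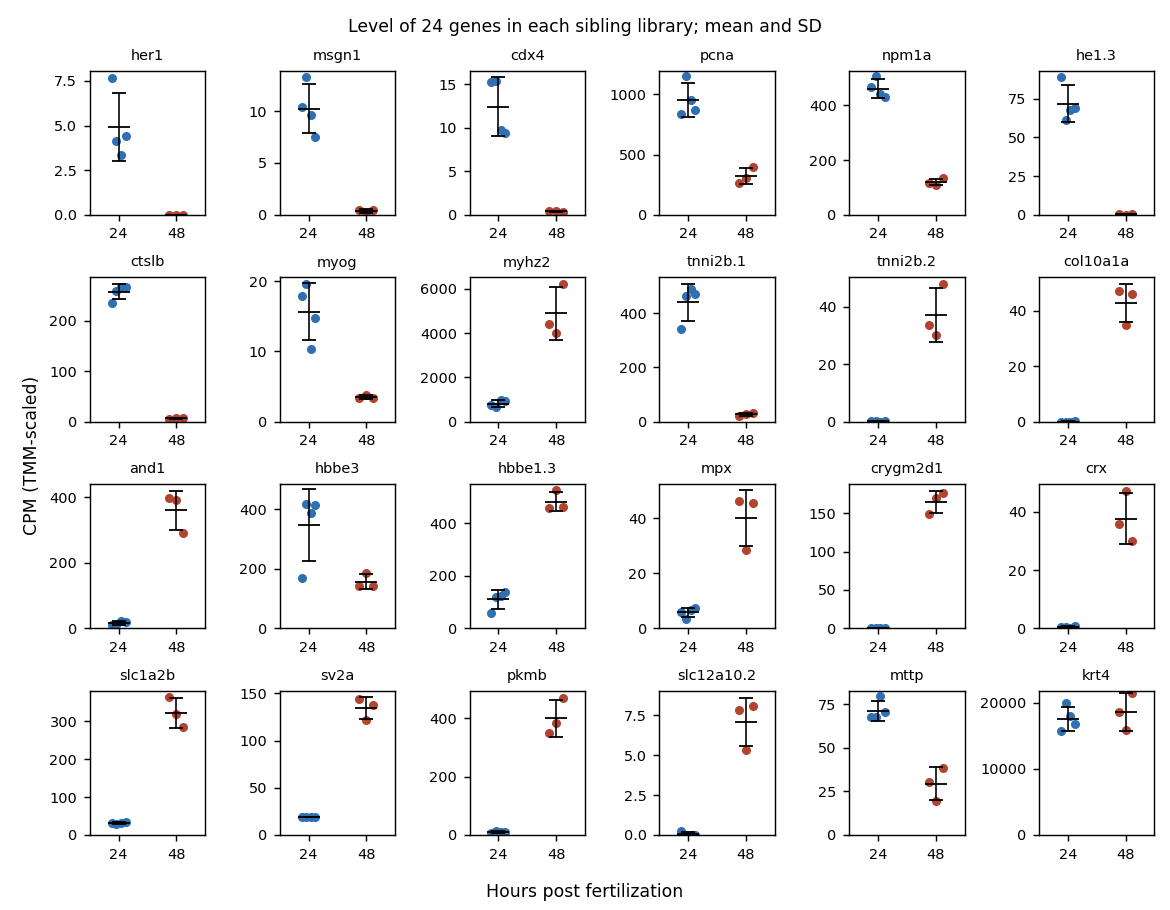
CPM (TMM-scaled, linear axis from 0) of 24 genes in each sibling library at 24 hpf (blue, 4 libraries) and 48 hpf (red, 3 libraries), with the mean and SD as bars. The 2 stages do not overlap for her1, tnni2b.1, tnni2b.2, crygm2d1 and sv2a, and they overlap for hbbe3 and krt4.

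Keratin genes of the skin moved in both directions, and other epidermal genes were mostly lower. Of 29 tested epidermal genes, 18 were lower and 5 higher (median log2 fold change -0.48). The keratin krt92 had 613, 774, 499 and 516 CPM at 24 hpf and 45.5, 56.2 and 64.5 CPM at 48 hpf (log2 fold change -3.44 ± 0.17, edgeR adjusted p = 3.99e-11). The similarly named krt91 had 71.3, 124, 105 and 105 CPM at 24 hpf and 879, 682 and 785 CPM at 48 hpf (log2 fold change 2.95 ± 0.16, edgeR adjusted p = 1.83e-10). The first fell and the second rose with no overlap of the stages. Keratin gene krt17 fell (-2.54 ± 0.18), and so did evplb, an envoplakin gene of the cell envelope (-1.31 ± 0.11). The periderm keratin krt4 did not pass the test, with 15702, 19879, 17983 and 16754 CPM at 24 hpf and 18521, 15794 and 21514 CPM at 48 hpf, and its estimate of 0.082 became -0.035 without 48 hpf replicate 3. Ionocytes, the salt-transporting skin cells, had 7 of 20 genes higher and 8 lower; 4 were higher without 48 hpf replicate 3. The sodium chloride cotransporter gene slc12a10.2 had 0.254, 0, 0 and 0 CPM at 24 hpf and 7.84, 5.33 and 8.08 CPM at 48 hpf (log2 fold change 6.76 ± 0.65, edgeR adjusted p = 1.55e-07). All 48 hpf libraries were above 5 CPM, and the 24 hpf reads were all in replicate 1. Without that library, slc12a10.2 was at least 234-fold higher at 48 hpf than 3 counts over the other 24 hpf libraries, and its log2 fold change was 10.9. The pump subunits atp1a1a.5 and atp1a1a.4 went opposite ways (1.34 ± 0.23 and -0.70 ± 0.11), and the proton pump subunit atp6v1ba fell (-0.47 ± 0.088).

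The hatching gland, which secretes the enzymes that open the egg envelope, lost transcripts: 7 of 9 genes were lower and 1 higher (median log2 fold change -1.79). The hatching enzyme he1.3 had 88.6, 61, 67.9 and 68.8 CPM at 24 hpf and 0.305, 0.195 and 0.872 CPM at 48 hpf (log2 fold change -7.17 ± 0.32, edgeR adjusted p = 1.78e-11); without 48 hpf replicate 3 the log2 fold change was -8.13. The gland's protease ctslb fell from 257 ± 14.9 to 6.18 ± 1.3 CPM. Other copies of the enzyme fell less, he1.1 from 992 ± 62.5 to 287 ± 15.5 CPM and he1.2 from 257 ± 19.9 to 68.3 ± 11.8 CPM, and reads may be shared between the copies. The higher member was agr2 (0.79 ± 0.18), a secretory pathway gene of mucous cells too, named after its values were seen. The cathepsin genes ctsll and ctss2.1, outside the list, were also among the greatest falls (-4.69 ± 0.42 and -6.28 ± 0.32).

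Most pigment genes were higher and neural crest genes were split. Of 25 tested pigment cell genes, 19 were higher and 6 lower (median 1.11); the share lower, 24.0%, was near the 26.3% of all genes. The melanosome matrix genes pmela and pmelb rose (1.42 ± 0.093 and 1.94 ± 0.17), as did the melanin enzyme tyrp1a (1.56 ± 0.10) and gpnmb from 4.05 ± 2.27 to 51.4 ± 12.2 CPM. The melanocyte regulator mitfa had a log2 fold change of -0.70 ± 0.24, with an edgeR adjusted p of 0.0226 that was 0.0888 without 48 hpf replicate 3 and at most 0.0889 over the alternatives. Of 16 neural crest genes 7 were higher and 7 lower. The specifier foxd3 fell from 31.3 ± 4.21 to 19.3 ± 2.84 CPM and the mesenchyme factor snai1b fell (-1.61 ± 0.16), while tfap2e (1.93 ± 0.13) and the neurotrophin receptor gene ngfra (2.73 ± 0.13) rose.

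Of 9 tested globin genes, 6 were higher and 1 lower (median log2 fold change 1.62). The beta globin hbbe1.3 had 57.1, 119, 125 and 139.7 CPM at 24 hpf and 459, 527 and 465 CPM at 48 hpf (log2 fold change 2.13 ± 0.30, edgeR adjusted p = 1.19e-05), and the alpha globin hbae3 rose from 377 ± 158 to 1234 ± 276 CPM. In contrast hbbe3 had 168, 418, 388 and 414 CPM at 24 hpf and 140.2, 185 and 143 CPM at 48 hpf (log2 fold change -1.15 ± 0.34, edgeR adjusted p = 0.00934). For hbbe3 the stages overlapped, since 24 hpf replicate 1 was as low as the 48 hpf libraries, and its call was lost without both libraries of low mitochondrial share. Replicate 1 at 24 hpf was low for the whole globin list, with a summed level of 573 CPM against 1325 to 1647 CPM in the other siblings, and for the other red cell and haem genes, with 803 against 1251 to 1565 CPM. The 24 hpf mutant library of that number was low as well, with 574 against 1332 to 1381 CPM for the globins. Replicate 1 also had the lowest globin sum at 48 hpf, 2642 against 3134 and 3536 CPM in siblings and 1474 against 2736 and 2527 CPM in mutants. For the other red cell genes at 48 hpf it held 1070 against 1205 and 1395 CPM in siblings and 889 against 1474 and 1356 CPM in mutants. Without sibling replicate 1 at 24 hpf the globin counts were again 6 higher and 1 lower. Reads of the globin copies may be shared. Of 25 other red cell and haem genes, 7 were higher and 10 lower, 28.0% and 40.0% against 26.2% and 26.3% of all genes. Enzymes of haem synthesis were among the lower ones, cpox (-2.27 ± 0.27) and urod (-2.14 ± 0.26), and the first enzyme alas2 was higher (1.0 ± 0.35, edgeR adjusted p = 0.0229), a call lost without 24 hpf replicate 1 or 48 hpf replicate 3, with adjusted p up to 0.0782. The ammonium channel gene rhag of the red cell membrane rose from 37.8 ± 10.1 to 141 ± 22.1 CPM.

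White cell genes included the neutrophil granule genes. Of 23 myeloid genes, 10 were higher and 4 lower, and 2 were lower without 48 hpf replicate 3. Myeloperoxidase mpx had 5.91, 3.37, 6.58 and 7.27 CPM at 24 hpf and 46.2, 28.5 and 45.5 CPM at 48 hpf (log2 fold change 2.79 ± 0.27, edgeR adjusted p = 1.73e-07), the granule protease gene npsn rose from 2.91 ± 1.7 to 16.8 ± 2.99 CPM and lysozyme lyz from 0.506 ± 0.379 to 2.4 ± 1.06 CPM (log2 fold change 2.24, or 2.9 without 24 hpf replicate 4). All 48 hpf libraries exceeded all 24 hpf libraries for mpx. Among 11 genes of thrombocytes and blood stem cells, 3 were higher, including runx1 (1.25 ± 0.25), and 2 lower, the progenitor factor myb (-1.44 ± 0.17) and rag2 (-2.07 ± 0.49). The shares of thrombocyte and blood stem cell genes, 27.3% higher and 18.2% lower, were near or below those of all genes. Endothelial genes had 9 of 37 higher and 13 lower, 24.3% and 35.1% against 26.2% and 26.3% of all genes. The vessel-founding factor etv2 fell (-1.52 ± 0.15), as did the scavenger receptor stab2 (-1.74 ± 0.12) and cxcr4a (-1.86 ± 0.19), and the diaphragm protein plvapb rose (1.36 ± 0.16). The vascular growth factor receptor kdrl had an estimate of 0.12 ± 0.10 (edgeR adjusted p = 0.335). In the pronephros 9 of 22 genes were higher and 8 lower. The salt transporter genes slc12a1 and slc26a1 fell (-2.78 ± 0.22 and -1.68 ± 0.13), and the kidney and thyroid factor pax8 rose (1.41 ± 0.12). Of these, slc26a1 is also a member of the yolk syncytial layer list below.

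Genes of yolk use fell in part. In the yolk syncytial layer list 10 of 14 genes were lower and 2 higher (median log2 fold change -0.70); 1 was higher without 48 hpf replicate 1. The lysosomal protease ctsba, of yolk breakdown, fell from 487 ± 53.5 to 112 ± 14.2 CPM (log2 fold change -2.12 ± 0.12, edgeR adjusted p = 3.66e-10), and the endocytic adaptor dab2 (-0.95 ± 0.12) and gata6 (-0.83 ± 0.11) fell too. Of 24 apolipoprotein and lipoprotein assembly genes, 10 were lower and 7 higher (median -0.36). Their shares, 41.7% and 29.2%, stood against 26.3% and 26.2% of all genes. The transfer protein gene mttp had 67.6, 67.3, 79.6 and 70.3 CPM at 24 hpf and 30.3, 19.3 and 38.5 CPM at 48 hpf in these siblings (log2 fold change -1.27 ± 0.21, edgeR adjusted p = 7.35e-05). The highest 48 hpf library was below the lowest at 24 hpf. apoeb fell from 2461 ± 201 to 852 ± 141 CPM and apoa4a from 52.2 ± 4.46 to 14.5 ± 1.83 CPM, whereas apoda.1 rose from 0.599 ± 0.424 to 12.5 ± 7.8 CPM (log2 fold change 4.37, or 3.73 without 48 hpf replicate 3, the highest library) and tm6sf2, a gene of lipoprotein lipidation in mammals, from 1.46 ± 0.347 to 10.1 ± 5.06 CPM. The major apolipoprotein apoa1b did not pass the test (-0.15 ± 0.16, edgeR adjusted p = 0.458), and its estimate was 0.0040 without 48 hpf replicate 3. The nuclear receptor gene hnf4a was higher (0.88 ± 0.26, edgeR adjusted p = 0.00928), a call lost without 48 hpf replicate 1, with adjusted p up to 0.0567.

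Liver plasma protein genes went both ways, 14 of 35 higher and 8 lower (median 0.23), shares of 40.0% and 22.9%. Of all genes, 26.2% were higher and 26.3% lower. The summed level of the list went down, from 5505 ± 156 to 3770 ± 186 CPM. The list shares tfa and rbp4 with that of the yolk syncytial layer, so this sum cannot be assigned to the liver alone. Transferrin tfa had 1742, 2442, 1845 and 1747 CPM at 24 hpf and 661, 961 and 1156 CPM at 48 hpf (log2 fold change -1.07 ± 0.16, edgeR adjusted p = 2.31e-05), with 24 hpf replicate 2 above the rest of its stage. Fetuin fetub fell from 1169 ± 232 to 301 ± 38.8 CPM. Ceruloplasmin cp rose from 46.2 ± 9.2 to 112 ± 14 CPM, fibrinogen fgg from 69.1 ± 7.72 to 127 ± 13 CPM and the tyrosine-degrading enzyme gene hpda from 0.843 ± 0.129 to 4.75 ± 0.762 CPM. The liver fatty acid binding protein gene fabp10a stayed under 1 CPM on average at both stages and did not pass the test. Among 21 endoderm transcription factors 5 were higher and 7 lower, with gata5 (-0.97 ± 0.13) and nr0b2a (-2.34 ± 0.12) falling and prox1a rising (1.34 ± 0.10); 3 were higher without 48 hpf replicate 1. The shares, 23.8% and 33.3%, were near those of all genes, 26.2% and 26.3%.

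Exocrine pancreas genes were low, with a summed level of 7.71 ± 0.964 to 12.8 ± 0.609 CPM. Of 21 exocrine genes 11 passed the filter on low counts, and 3 were higher, the lineage factor ptf1a (1.14 ± 0.32) and the carboxypeptidases cpa5 (4.68 ± 0.86) and cpb1 (1.29 ± 0.47); that of cpb1 was lost without 24 hpf replicate 3 or 4 or 48 hpf replicate 2, with adjusted p up to 0.0841. The share higher, 27.3% of the 11 tested, was near the 26.2% of all genes. Trypsin prss1 went from 0.542 to 1.16 CPM and was not called. Of 17 endocrine pancreas genes 8 were higher and 1 lower (2 lower without 48 hpf replicate 3). Those with the smallest p, neurod1, isl1, pcsk2 and scg2b (2.29 ± 0.13, 2.01 ± 0.11, 1.81 ± 0.15 and 2.23 ± 0.11), are also genes of neurons. Insulin ins had 1.46, 3.31, 2.79 and 2.92 CPM at 24 hpf and 3.23, 4.81 and 11.2 CPM at 48 hpf, an edgeR adjusted p of 0.00664 that was 0.121, the highest over the alternatives, without 48 hpf replicate 3. Of 16 intestine genes 5 were higher and 4 lower, 31.2% and 25%, also near the shares of all genes. The summed level of the list fell from 683 ± 31.4 to 274 ± 20.7 CPM. The fatty acid binding protein genes fabp2 and fabp1b.1 and the cadherin cdh17 fell (-2.95 ± 0.18, -0.78 ± 0.12 and -1.54 ± 0.10), and the gut homeobox gene cdx1b rose (4.57 ± 0.57). cdh17 is a kidney duct gene too, and fabp2 and fabp1b.1 are also known as genes of the zebrafish yolk syncytial layer. Whole-embryo RNA does not show in which tissue these genes fell, and this was not tested.

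Of 30 pituitary, hypothalamus, thyroid and interrenal genes, 20 passed the filter, 7 were higher and 3 lower. For members with almost no reads at 24 hpf, such as cyp11a2, only a rise could be called. Genes of steroid synthesis were among those called, and whole-embryo RNA does not show in which tissue they were expressed. The side-chain cleavage enzyme gene cyp11a1 had 5.43, 5.44, 2.11 and 1.13 CPM at 24 hpf and 0.183, 0.39 and 0 CPM at 48 hpf (log2 fold change -4.25 ± 0.84, edgeR adjusted p = 4.03e-04), and its relative cyp11a2 had 0, 0, 0 and 0 CPM at 24 hpf and 0.122, 0.65 and 2.48 CPM at 48 hpf. The first fell without overlap, while the second had no read at 24 hpf and varied widely at 48 hpf, at least 47.1-fold higher on average, or 16.8-fold without 48 hpf replicate 3, which held most of its reads. The estimate for cyp11a1 was -3.61 without 48 hpf replicate 3 and -5.31 without replicate 2. The cholesterol carrier star rose from 0.262 ± 0.139 to 4.1 ± 0.639 CPM and cyp21a2 from 0.135 ± 0.131 to 2.16 ± 0.613 CPM, with a log2 fold change of 3.95, or 4.65 without 24 hpf replicate 2. Pituitary pomca had at most 10 reads per library and was not tested.

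Glycolysis genes were mostly higher, and genes of respiration were mostly not called. Of 30 tested glycolysis genes 22 were higher and 5 lower (median log2 fold change 1.23). Muscle-type pyruvate kinase pkmb had 5.47, 14.2, 9.71 and 9.22 CPM at 24 hpf and 348, 382 and 471 CPM at 48 hpf (log2 fold change 5.37 ± 0.26, edgeR adjusted p = 3.55e-11). The stages were far apart. Muscle phosphofructokinase pfkma rose from 0.54 ± 0.267 to 55.2 ± 4.5 CPM, enolase eno3 from 178 ± 22.6 to 525 ± 47.8 CPM and lactate dehydrogenase ldha from 47.1 ± 3.8 to 184 ± 5.21 CPM. Other members fell, named after their values were seen. They were pfklb (-0.95 ± 0.21) and pklr (-0.61 ± 0.16), of the same steps as pfkma and pkmb, and hk2 (-1.09 ± 0.20), of another step. Of 85 nuclear genes of oxidative phosphorylation 7 were higher and 15 lower (median -0.12), but the number lower was 9 without 24 hpf replicate 3, 10 without 48 hpf replicate 1 or 2 and 22 without 48 hpf replicate 3. It was 9 when scaled by library size only or with no filter on low counts, and 6 with the sibling libraries only. The shares with all libraries, 8.24% higher and 17.6% lower, were below the 26.2% and 26.3% of all genes. The inhibitor atp5if1a (-0.94 ± 0.17), the complex III subunit uqcrh (-0.70 ± 0.08) and the ATP synthase subunit atp5f1e (-0.60 ± 0.093) fell, and the cytochrome oxidase isoform cox4i2 rose (1.95 ± 0.39). None of the 13 mitochondrially encoded genes was called by edgeR, DESeq2 or limma-voom, and 0 had an unadjusted p under 0.05. Their median was -0.13, or 0.21 without 48 hpf replicate 3, and 1 was called lower without 24 hpf replicate 2; those libraries had the lowest mitochondrial shares of their stages, given above.

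Of 33 circadian genes 12 were higher and 6 lower (median 0.25), 36.4% and 18.2% against 26.2% and 26.3% of all genes. The repressor nr1d2a rose from 6.37 ± 0.987 to 38.4 ± 11 CPM, and so did hlfb (2.41 ± 0.24) and nfil3-5 (1.71 ± 0.13), while per1b fell (-0.56 ± 0.16) along with bhlhe40 (-0.94 ± 0.093). The clock hour of collection is not given in the labels. Of 25 motile cilia genes 10 were lower and 2 higher (median -0.50; 1 higher without 48 hpf replicate 3), the central pair gene spag6 (-1.28 ± 0.25), rfx2 (-0.66 ± 0.089) and dnah5 (-0.50 ± 0.13) among the lower and tppp3 (1.92 ± 0.23) among the higher. The remaining genes among the greatest falls were the bile salt export pump abcb11a (-4.9 ± 0.29) and the cytochrome P450 cyp4t8 (-4.67 ± 0.22).

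Few genes went from absent to present in every library. A gene counted as switched on had under 0.1 CPM in every 24 hpf library and at least 1 CPM in every 48 hpf library, and the reverse as switched off. By this rule 24 genes were switched on, 17 of them with a gene name, and 7 switched off, 3 with a name. Without 48 hpf replicate 3 the counts were 45 and 8. A rule over fewer libraries is easier to meet, so these counts could only stay or rise. They were not taken with other libraries left out. Those on included 5 gamma crystallins, lim2.5, col10a1a and tnni2b.2. The named genes switched off were her1, znfl1h and the Nodal antagonist lft2, lower by a ratio of 167 (counting interval 45.9 to 1380). Both lft2 reads at 48 hpf were in replicate 1, so without it the gene was at least 77.3-fold lower, and without replicate 3 the ratio was 98.9 (counting interval 27.2 to 820.0). Among groups of genes sharing the letters of their symbol, with at least 10 tested members, the highest medians belonged to crygm (9.47, 20 of 20 higher), the NMDA receptor subunits grin (2.4, 11 of 12), the glypicans gpc (2.07, 8 of 10), cacng (2.06, 9 of 12) and the LIM homeobox genes lhx (2.0, 8 of 10). The lowest belonged to zp, the egg envelope proteins (-1.72, 4 of 11 lower), the helicase subunits mcm (-1.5, 10 of 12 lower), the exosome subunits exosc (-1.06, 10 of 10 lower), pimr (-0.96, 2 of 16 lower) and the RNA polymerase subunits polr (-0.92, 25 of 28 lower). The share of pimr genes that were lower was below the 26.3% of all genes, and most of its members were not called, as were most of zp. As for the crystallin list, crygm members with almost no reads at 24 hpf could pass the filter only through 48 hpf libraries.

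Many zebrafish genes have copies named a and b from the whole-genome duplication of teleost fish. Pairs were taken here by name only, as symbols equal but for a final a or b. Some of them, such as aurka and aurkb, are not copies of this kind. Of 2668 pairs with both genes tested, 553 had both higher, 265 both lower and 345 were called in opposite directions. Exactly one member was called in 1088 pairs and neither in 417. Pairs with both genes higher thus outnumbered those called in opposite directions. With 26.2% of all genes higher and 26.3% lower, opposite calls also arise between unrelated genes. The share of such pairs among unrelated genes was not computed, so the counts do not show that copies diverged. In 307 of the opposite pairs both genes had an average log2 CPM of at least 1. Of these, 6 pairs with the greatest difference between their genes were named. They were ankrd1a and ankrd1b (-1.38 and 6.41), ndrg1a and ndrg1b (-0.62 and 5.89), and slc1a3a and slc1a3b (-1.67 and 4.81). Next came tkta and tktb (4.43 and -1.94), prdm1a and prdm1b (-0.51 and 5.39), and ednraa and ednrab (1.21 and -4.63). The transketolase tkta had 1.91, 2.01, 0.869 and 2.43 CPM at 24 hpf and 41.6, 38.2 and 37.4 CPM at 48 hpf. Its copy tktb had 792, 768, 708 and 697 CPM at 24 hpf and 213, 177 and 189 CPM at 48 hpf. Neither copy overlapped between the stages. The endothelin receptor ednrab, a neural crest gene, fell from 41.3 ± 4.12 to 1.65 ± 0.466 CPM and ednraa rose from 12.2 ± 1.62 to 28.2 ± 2.91 CPM. Reads that fit both copies may be counted for either.

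**Figure D4:**
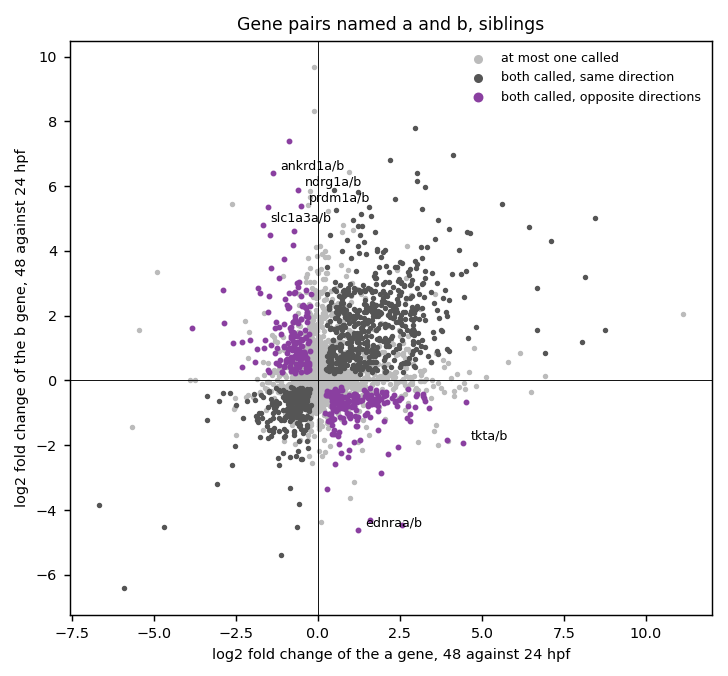
Log2 fold change, 48 against 24 hpf in siblings, of the gene named b against that of the gene named a, for 2668 pairs with both genes tested. Purple points are the 345 pairs called in opposite directions and dark grey points those called in the same direction. Light grey points are pairs with at most 1 gene called. The 6 labelled pairs have the greatest differences among opposite pairs with an average log2 CPM of at least 1 for both genes.

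The nearest comparison was the same interval in mttp mutants, in which 10552 genes were called (43.2%), 5758 higher and 4794 lower. The edgeR test of the difference between the changes called 774 genes (3.17%), 594 with the greater rise or lesser fall in mutants and 180 the reverse, so 664 of the 12807 sibling calls (5.18%) went with a called difference. Without 48 hpf sibling replicate 3 the counts were 1053 and 375, and without sibling replicate 2 at 48 hpf the second was 109. The 4 genes with the greatest positive difference were slc25a38a (-3.74 in siblings, 1.65 in mutants), arf4b (-1.71 and 3.58), the cathepsin gene ctss2.1 (-6.28 and -1.08) and cd83 (0.31 and 4.88). Those with the greatest negative difference were clstn3 (3.04 and -1.02), gnb3a (6.15 and 2.37), FAM135B (2.08 and -0.87) and phka1b (4.14 and 1.29). The sibling fall of arf4b was -1.0, with an edgeR adjusted p of 0.123, without 48 hpf replicate 3, and its call was also lost without 24 hpf replicate 4, without both libraries of low mitochondrial share, with the sibling libraries only and with limma-voom. The called difference of gnb3a was lost without sibling 48 hpf replicate 2 (edgeR adjusted p = 0.0647), and limma-voom did not call the differences of arf4b, cd83 and gnb3a. Without sibling 24 hpf replicate 3 the rise of gnb3a was 7.13. In 85 genes siblings and mutants were called in opposite directions and the difference was called. Of the lists named next, that of the yolk syncytial layer shares tfa and rbp4 with the liver list. It shares apoba and apoa4b.1 with the apolipoproteins, and hnf4a and gata6 with the endoderm factors, so their counts may overlap. The 5 lists with at least 5 called differences were picked after their values were seen. They were ribosome biogenesis (13 of 39 members, median change -1.53 in siblings and -0.96 in mutants), liver and plasma proteins (12 of 35, 0.23 and 0.73), apolipoproteins and lipoprotein assembly (11 of 24, -0.36 and 0.26), the yolk syncytial layer (5 of 14, -0.70 and -0.18) and endoderm transcription factors (5 of 21, -0.12 and -0.11).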

How the data were processed

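RNA from whole embryos was extracted with TRIzol, and libraries were made from 1 µg of total RNA with the NEBNext Ultra RNA kit, which does not mark strand. The authors deposited 1 table of raw read counts per gene. Per the submitters' processing notes, the build was GRCz11 and the tools included STAR 2.7.10b and featureCounts 2.0.6, with FastQC 0.12.1 and Trim Galore 0.6.10. Neither the annotation and strand setting nor the handling of reads that map to several genes is given in the sources used here, so reads of similar or overlapping genes may be counted for either. The table held 36109 genes, 4130 of them with no count.

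Counts were fitted with edgeR 4.0.16 (limma 3.58.1, R 4.3.3; glmQLFit, glmQLFTest) and TMM scaling. filterByExpr, at a minimum count of 10, kept 24424 genes and 99.96% of the counts. All 14 libraries were fitted as 4 groups with 10 residual degrees of freedom (common dispersion 0.058). Calls were made at an adjusted p under 0.05 (Benjamini-Hochberg, over all genes tested). The difference between mutants and siblings was the interaction of stage and genotype. CPM were scaled with TMM factors. Floors of 3 counts and 95% exact intervals cover counting error only. The biological coefficient of variation was 0.232 at 24 hpf and 0.361 at 48 hpf.

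The comparison, the 47 gene lists and the rule for named genes were chosen with earlier results of these data known, so the lists give no independent support. Genes were named if they had the greatest changes (12 each way, average log2 CPM of at least 1, no overlap of the stages), belonged to a set of markers, were among the 4 called members of a list with the smallest p, or led the pairs, symbol groups, switches or interactions. A RefSeq synonym matched 14 listed names, and 16 names had no match. Alternatives were other normalizations and filters, DESeq2 1.42.0, limma-voom, a 2-fold threshold, sibling libraries only, a replicate block, and leaving out libraries. The fits were tested on simulated counts. There 35.8% of 1.5-fold, 46.3% of 2-fold and 66.7% of 4-fold changes were recovered, and 2 of 101 called genes had not been changed. That simulation had far fewer calls than the 12807 of the data, so its shares may not hold there. A gene not called may still have changed. No sequences are shown, and 1 gene that the naming rule picks is not reported here.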

Additional observations from a re-analysis of the deposited data

Results flagged for a closer look

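In 6 of 82 sets of 4 values examined at 24 hpf, 1 sibling library was flagged for its gap from the other 3. Chance alone gives about 1 in 20. For genes, these were replicate 4 for col10a1a (0.0608 CPM, with 0 in the others), replicate 1 for rho (0.0636 CPM, with 0 in the others), replicate 1 for hbbe3 (168.0 CPM, below the others) and replicate 2 for tfa (2442 CPM, above the others). The col10a1a and rho values are 2 reads each. For summed lists, they were replicate 2 for photoreceptor, pineal and pigment epithelium genes (55.8 CPM, the lowest) and replicate 3 for neural crest genes (603.0 CPM, the lowest).

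For 9 named genes flagged here the change from 24 to 48 hpf differed between mutants and siblings by the test of that difference. All but tfa were named because they had the greatest called differences, so the naming rule itself required them to pass. These genes need not be all the named genes that passed it. The mutant change exceeded the sibling change by 5.39 for slc25a38a, 5.29 for arf4b, 5.198 for ctss2.1 and 4.57 for cd83 on the log2 scale. It was below the sibling change for clstn3 (-4.07), gnb3a (-3.78), FAM135B (-2.95), phka1b (-2.85) and transferrin tfa (-0.96). The test of the difference did not pass without sibling 48 hpf replicate 2 for gnb3a and tfa (edgeR adjusted p = 0.0647 and 0.0555).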

How the results depend on the processing

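Library number, the single sibling library that stands apart at 48 hpf, and the shared stage and batch label limit the comparison. Genes with few reads, such as opn1sw1, mbpa and pomca, were not tested. The counts of 6388 higher and 6419 lower genes ranged from 5829 to 6466 and from 5794 to 6585 when single sibling libraries were left out. They were 6745 and 6465 with DESeq2, 6363 and 6710 with limma-voom, and 5752 and 5236 with the 7 sibling libraries only. With a change of at least 2-fold required they were 2857 and 1059, and the counts of genes differing between mutants and siblings were 39 and 6, because the threshold is stricter. Those last counts, 594 higher and 180 lower in mutants, ranged from 470 to 1053 and from 109 to 375 when single sibling libraries were left out. The lower count was 281 with CPM of at least 1 in 3 libraries, 506 with DESeq2 and 481 with both low-mitochondrial libraries left out (the cause was not tested). With the replicate number as a block, the counts were 6264 and 6549, and 681 and 217 for the difference. Deviations of same-numbered sibling libraries of the 2 stages correlated at 0.255, 0.043 and 0.082, and not every library correlated best with its own number. The main fit did not take the numbers as pairs. This check did not compare siblings with mutants of the same stage, so it cannot decide whether the numbers are pairs. Replicate 1 had the lowest globin sum in all 4 groups. The counts of called members of 47 lists, 94 in all, moved by over 1.5 times for 69 with the 2-fold threshold and for at most 9 under any other single alternative. Of 241 named genes, 230 kept direction and call without 48 hpf replicate 3, 241 with DESeq2 and 171 with the 2-fold threshold. The sign turned for 5 genes that were not called. With single libraries left out, the log2 fold change was -0.36 to 0.0040 for apoa1b, -0.12 to 0.22 for gfap, -0.035 to 0.21 for krt4, turning without 48 hpf replicate 3 (apoa1b 0.0040, gfap -0.12, krt4 -0.035), and -0.17 to 0.72 for cd83, turning without 48 hpf replicate 1. For fabp10a it was 0.094 with the low-mitochondrial libraries left out. The CPM filter and the sibling libraries alone left some low genes untested, among them rho and cyp11a2.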
